A study of Mus musculus with 49 samples.

Results

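The comparison set whole mouse ankles taken 7 days after the first serum injection against whole ankles taken on day 0. Its members were chosen by their titles: 4 ankle arrays of day 7 and 4 ankle arrays of day 0, which are 8 of the 49 arrays of the series and 8 of its 19 ankle arrays. All 8 came from male B6 mice aged 6 weeks, with no mutant allele named in the labels, and each held total RNA of the unseparated ankle. The labels call the injected material serum, and those of the other tissues name it as K/BxN serum, which comes from mice that spontaneously develop arthritis. The series followed serum-transferred arthritis in ankle, joint fluid cells and blood leukocytes over 18 days, and each value is the brightness of an Affymetrix probe set after the RNA had been amplified by 2 rounds of in vitro transcription. The title of the study concerns the chemokine receptor CXCR2, and no label of these 8 arrays names a mouse lacking it. Nothing in the labels says whether the replicates were separate animals or pools, so the p-values reflect only how these samples spread, part of which may be technical.

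K/BxN serum carries antibodies against glucose-6-phosphate isomerase, which settle on joint surfaces as immune complexes. Complement and Fc receptors respond to them, neutrophils are drawn in by leukotriene B4, interleukin 1 and ligands of CXCR2, and the inflamed synovium then erodes cartilage and bone. An ankle lysate mixes synovium, tendon, cartilage, bone with marrow, muscle, fat, skin, vessels and any infiltrating cells. In such bulk samples fewer cells of a type and less RNA per cell cannot be told apart.

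Levels below are log2 intensities of 1 probe set for each gene, and differences are log2 values of day 7 minus day 0 with their standard error. The 8 arrays had median intensities of 58.6 to 64.1, and replicates correlated across genes at 0.959 to 0.982 on day 7 and at 0.930 to 0.992 on day 0. The 95th percentile of 34 negative control probe sets was 6.85, and both group means lay within that limit for 4749 of 8251 genes (57.6%). A level under 6.85 is therefore called near background here, and a fold is given only where both means exceeded it. The labelled tissue fitted its markers: 14 of 16 measured collagen genes and 17 of 25 skeletal muscle genes exceeded the limit on at least 1 of the days. Col2a1, the main collagen of hyaline cartilage and chosen after its values were seen, did not. It read 4.95 to 5.49 on day 7 and 4.69 to 5.63 on day 0.

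Replicate 1 of each day stood apart by liver transcripts. Alb, the albumin gene of hepatocytes, read 8.41, 4.61, 4.36 and 4.87 in day 7 replicates 1 to 4, against 8.95, 5.19, 5.03 and 4.79 in day 0 replicates 1 to 4. Only replicate 1 of each day exceeded the control limit for Alb. Of 24 measured liver genes, replicate 1 was the highest array for 18 on day 7 and for 21 on day 0, and it exceeded all of the other 3 by more than 1 log2 unit for 10 genes on day 7 and 18 on day 0. The summed intensity of the list was 4735.8, 1373.5, 1939.6 and 1317.4 on day 7, against 7984.6, 2583.5, 2031.1 and 1888.4 on day 0. None of the 24 genes passed the test between the days, against 6.73% of all genes (Alb difference -0.43 ± 1.18, adjusted p = 0.91). The heat map of liver genes shows the same pair of arrays. Other transcripts also varied by array: skeletal muscle genes summed to 9194, 6594, 27657 and 24998 on day 7, against 14603, 26040, 34442 and 25387 on day 0. The 3′ beta-actin probe set exceeded the 5′ one, which reflects RNA degradation and amplification, by log2 values of 3.34 to 3.83 on day 7 and of 2.73 to 3.5 on day 0.

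**Figure D1:**
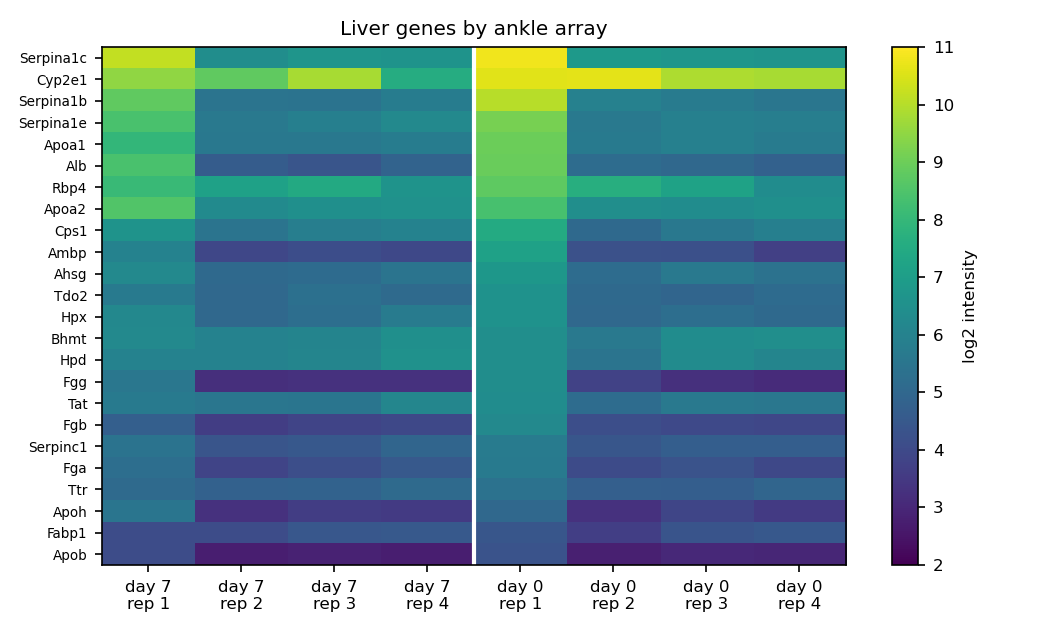
Log2 intensity (colour) of the 24 measured liver genes (rows) in the 4 day 7 arrays (left) and the 4 day 0 arrays (right). The columns of replicate 1 are brighter on both days, with Alb at 8.41 on day 7 and 8.95 on day 0, while no other array exceeded 5.19 for Alb.

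At day 7, 255 genes were higher and 300 genes were lower than at day 0 by limma at an adjusted p under 0.05, which is 3.09% and 3.64% of the 8251 genes tested and 6.73% in either direction. Of these, 21 genes rose by more than 2 log2 units and 9 fell by more than 2. The median called rise was 0.91 and the median called fall was -0.79, against a median of 0.00 over all genes. In 479 of the 555 called genes no day 7 array overlapped any day 0 array, while such separated arrays were found in 820 of all genes (9.94%), 331 of them higher (4.01%) and 489 lower (5.93%). Both group means lay near background for 116 of the called rises and 69 of the called falls, and 56 rises had a day 7 mean above the control limit and a day 0 mean near background. In the fit without the arrays with liver transcripts, 195 of the 255 rises and 256 of the 300 falls passed again. That fit left out replicate 1 of day 7 and day 0, and also replicate 1 of day 1 and day 12. Alb reached 10.65 on a day 12 ankle array. With this 3′ to 5′ beta-actin ratio added to the model (the beta-actin covariate), 126 of the rises and 112 of the falls passed, so that 250 genes in all were called in place of 555. Apart from replicate 1 of day 0, every day 0 array had a lower ratio than every day 7 array. The ratio thus overlaps with the day, and the covariate can take up part of the difference between the days. A call lost with the covariate cannot separate RNA quality from the day, and which of them applies was not tested. Without day 0 replicate 4, 359 genes were called. Which direction held more genes depended on the setting: higher and lower genes numbered 310 and 293 after a new quantile normalization, 130 and 120 with the beta-actin covariate, 393 and 312 without day 0 replicate 2, 184 and 175 without day 0 replicate 4, 199 and 172 without day 7 replicate 3, and 223 and 170 without day 7 replicate 4.

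**Figure D2:**
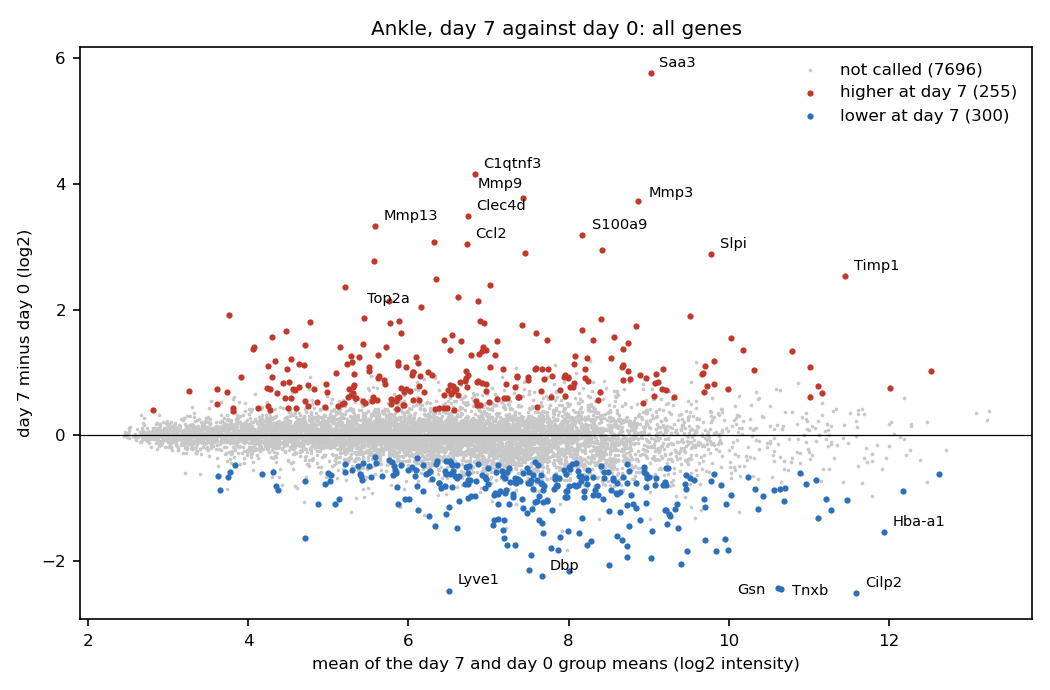
Difference between day 7 and day 0 (vertical axis, log2) against the mean of the group means (horizontal axis, log2 intensity) for 8251 genes, with 255 higher genes in red, 300 lower genes in blue and the rest in grey. The largest rise, Saa3 at 5.76, is farther from 0 on this scale than the largest fall, Cilp2 at -2.50.

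The largest rise was that of Saa3, a serum amyloid A of the acute phase that is made mostly outside the liver, by macrophages, fat and stromal cells. Saa3 read 11.96, 12.56, 11.77 and 11.31 in the day 7 ankles, against 5.81, 6.77, 5.52 and 6.48 in the day 0 ankles. Every day 7 array stood more than 4 units above the highest day 0 array, and every day 0 array was near background. The difference was 5.76 ± 0.33 (adjusted p = 9.52e-09). Of 13 measured acute phase genes, 3 rose and 1 fell, a called share of 30.8% against 6.73% of all genes. Hp, the haemoglobin-scavenging haptoglobin, was bright on both days and rose by 0.76 ± 0.20 (adjusted p = 0.0295), and Saa2 rose by 0.84 ± 0.19 (adjusted p = 0.011), though a further Saa2 probe set differed by -0.10. The call of Hp held in 2 of the 8 fits that left out 1 array each (adjusted p = 0.108 without day 0 replicate 4), and neither Hp nor Saa2 was called with the beta-actin covariate (adjusted p = 0.243 and 0.128). Cp, the copper oxidase ceruloplasmin, went the other way, with 7.79, 7.41, 7.41 and 6.81 on day 7 and 9.37, 9.74, 8.52 and 8.75 on day 0. It fell by 1.74 on the log2 scale (adjusted p = 0.00629), and it too was not called with the beta-actin covariate (adjusted p = 0.0683). The stretch upstream of the start of Saa3 is shown because this gene rose most. It was taken from RefSeq on GRCm38.p6 at chr7:46715692-46715851, on the minus strand, and capitals mark a match to the letters TTGCNNAA of C/EBP factors on either strand:
Saa3: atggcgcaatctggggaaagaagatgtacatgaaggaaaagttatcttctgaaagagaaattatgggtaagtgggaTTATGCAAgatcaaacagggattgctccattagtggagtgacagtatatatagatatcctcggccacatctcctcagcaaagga
Such a match stood in 10.8% of the 32851 promoter windows of the same length (300 bases, from 250 before to 50 after each start), so it is a description of these letters and not a site.

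All 3 measured ligands of CXCR2, the receptor by which neutrophils follow CXC chemokines, rose, against 3.09% of all genes. Cxcl1 read 9.40, 8.84, 8.97 and 8.4 on day 7, against 6.07, 5.82, 4.79 and 7.35 on day 0. The lowest day 7 array stood above the highest day 0 array, although day 0 spread over more than 2 units. Its difference was 2.90 ± 0.44 (adjusted p = 0.000471), and a further Cxcl1 probe set gave 2.50. Cxcl5, made mainly by stromal and epithelial cells, read 6.37, 7.16, 8.23 and 6.08 on day 7, against 4.29, 4.1, 4.08 and 4.29 on day 0, a difference of 2.77 ± 0.42 (adjusted p = 0.000469). Cxcl2 stayed under the control limit on both days, with 5.50 to 5.86 on day 7 and 3.56 to 4.26 on day 0, and rose by 1.81 ± 0.22 (adjusted p = 6.06e-05). All 3 calls held without the arrays with liver transcripts and with the beta-actin covariate. Cxcr2 itself was near background on every array, with 3.96 to 4.19 on day 7 and 3.68 to 4.2 on day 0 (difference 0.14 ± 0.10, adjusted p = 0.543). In joint fluid cells of day 7, Cxcl1 averaged 9.01, Cxcl2 9.12 and Cxcl5 7.25. The upstream stretches of Cxcl1 (chr5:90891099-90891258) and Cxcl2 (chr5:90903727-90903886), both on the plus strand of GRCm38.p6 per RefSeq, were chosen after the values were seen, and capitals mark overlapping matches to the NF-kB consensus:
Cxcl1: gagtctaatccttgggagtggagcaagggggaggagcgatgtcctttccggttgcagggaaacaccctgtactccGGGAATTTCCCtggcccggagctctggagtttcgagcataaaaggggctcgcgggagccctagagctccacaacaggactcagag
Cxcl2: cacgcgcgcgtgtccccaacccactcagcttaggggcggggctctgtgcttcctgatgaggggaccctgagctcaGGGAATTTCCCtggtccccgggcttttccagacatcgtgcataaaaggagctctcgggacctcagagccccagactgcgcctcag
The same run of capitals stood in both genes, and an NF-kB match stood in 8.46% of all promoter windows.

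Of 14 measured CC chemokines, which attract monocytes and other leukocytes, 5 rose and none fell, with a median difference of 0.35. That is 35.7% called, against 6.73% of all genes. Ccl2, the main ligand of the monocyte receptor CCR2, read 8.34, 8.44, 8.89 and 7.33 on day 7, against 4.68, 6.14, 4.69 and 5.32 on day 0 (difference 3.04 ± 0.35, adjusted p = 2.91e-05). Its neighbour in function Ccl7 read 6.57, 6.46, 6.67 and 5.85 on day 7, against 3.47, 4.59, 3.88 and 4.19 on day 0 (difference 2.35 ± 0.24, adjusted p = 7.77e-06). For both genes the days were clearly separated, and Ccl7 stayed near background throughout. Ccl8 rose by 1.48 ± 0.40, Ccl9 by 0.92 ± 0.25 and Ccl3, near background, by 0.57 ± 0.15. Each of these 3 calls held in only 3 of the 8 fits that left out 1 array. Without day 0 replicate 4 their adjusted p-values were 0.0999, 0.0944 and 0.0636, and without the arrays with liver transcripts, as with the beta-actin covariate, only Ccl2 and Ccl7 of the list were called. Of 8 other CXC and related chemokines (12.5% called) only Cxcl14 rose (0.65 ± 0.19, adjusted p = 0.0422), near background on both days and in 1 of those 8 fits. Among 18 chemokine receptors (11.1% called), Ccr2 rose by 1.17 ± 0.24 near background (adjusted p = 0.00521). Ackr4, a scavenger of CCL19 and CCL21, fell by 0.55 on the log2 scale near background (adjusted p = 0.0471). Ackr4 was called in 2 of the 8 fits that left out 1 array, and neither receptor gene was called with the beta-actin covariate (adjusted p = 0.0571 and 0.0753).

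Markers of mature neutrophils rose in 5 of 14 measured genes (35.7%, against 3.09% of all genes), and none fell. S100a8 and S100a9, which encode the 2 chains of calprotectin, rose together. S100a8 read 10.31, 10.26, 9.41 and 9.58 on day 7, against 6.98, 7.58, 6.33 and 6.89 on day 0, which is 7.69 times higher on day 7 (2.94 ± 0.25, adjusted p = 8.8e-07). S100a9 read 10.18, 9.97, 9.40 and 9.45 on day 7, against 6.22, 6.87, 6.36 and 6.83 on day 0 (3.18 ± 0.28, adjusted p = 1.19e-06). Clec4d, which encodes a myeloid C-type lectin receptor, read 9.06, 8.54, 8.75 and 7.59 on day 7, against 4.81, 5.26, 4.59 and 5.32 on day 0 (3.49 ± 0.27, adjusted p = 4.65e-07). In these 3 genes the lowest day 7 array stood more than 1 unit above the highest day 0 array. Fpr2, a receptor for formylated peptides and for serum amyloid A, rose by 0.85 ± 0.17 near background (adjusted p = 0.00474), and Mmp9 is described with the proteases. The same genes were bright in the joint fluid cells of day 7, where S100a8 averaged 12.11, S100a9 11.8 and Clec4d 11.03. Precursor granule genes, which neutrophils transcribe in the marrow, gave 0 calls by limma among 9, against 6.73% of all genes, and 2 of the 9 had an unadjusted p under 0.05, against 18.7% of all genes. Only 2 of these 9 had a mean above the control limit on either day, against 6 of the 14 mature neutrophil genes. That limits what the precursor list can show. The largest differences in that list were those of the lysozyme gene Lyz2 (0.63 ± 0.22, adjusted p = 0.0946, further probe set 0.53) and of Lcn2 (0.35 ± 0.16, adjusted p = 0.246), whose further probe set differed by 0.90, while Camp and Elane, chosen after their values were seen, differed by 0.02 ± 0.22 and -0.01 ± 0.16. None of the 5 subunits of the phagocyte oxidase was called either (1 at an unadjusted p under 0.05), with the largest difference in Rac2 (0.47 ± 0.18, adjusted p = 0.13).

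Of 14 monocyte and macrophage genes 4 rose and none fell, a called share of 28.6% against 6.73% of all genes. Mpeg1, which encodes the pore-forming perforin-2 of macrophages, read 9.02, 9.69, 9.29 and 9.33 on day 7, against 7.29, 7.81, 7.17 and 7.66 on day 0, a rise of 3.60 times (1.85 ± 0.17, adjusted p = 1.84e-06). A further Mpeg1 probe set differed by 0.10. Msr1, a scavenger receptor, rose by 1.29 ± 0.17 (adjusted p = 0.000102), also with a further probe set at 0.07. The other risers, both near background, were Ccr2 and Fcgr1, the high-affinity IgG receptor (0.65 ± 0.14, adjusted p = 0.00851, further probe set 0.57). Of 5 genes of alternative activation 1 rose and 1 fell (40% called). Arg1, the arginase of such macrophages and of some neutrophils, read 8.68, 8.06, 7.1 and 7.59 on day 7, against 6.49, 4.26, 4.13 and 4.26 on day 0 (3.07 ± 0.56, adjusted p = 0.00203). Arg1 is also made by hepatocytes, and its highest array on each day was replicate 1, the array with liver transcripts. In the fit without the arrays with liver transcripts the difference was 3.36 (adjusted p = 0.000486). Folr2, a folate receptor of resident macrophages, fell by 0.88 on the log2 scale (adjusted p = 0.000983). Pan-leukocyte genes chosen after their values were seen also rose: Lcp1, which encodes an actin-bundling protein of leukocytes, by 1.26 ± 0.20 with a further probe set at -0.08, Cd52 by 1.75 ± 0.24 and Ptprc (CD45) by 1.26 ± 0.26, the last near background and with further probe sets at -0.11 to -0.05.

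Interleukin 1 genes rose in 4 of 10 (40%), against 3.09% of all genes. Il1rn, the decoy ligand of the receptor, read 7.73, 7.61, 7.00 and 7.98 on day 7, against 5.27, 4.98, 4.80 and 5.35 on day 0 (2.48 ± 0.29, adjusted p = 3.37e-05). Il1b read 6.91, 6.88, 6.56 and 6.55 on day 7, against 5.29, 4.72, 5.17 and 5.21 on day 0 (1.63 ± 0.26, adjusted p = 0.000706). The means of Il1b were near background on both days, as was the day 0 mean of Il1rn, and whether these 2 differences are unequal was not tested. Il1r1, the signalling receptor, rose by 1.25 ± 0.25 near background (adjusted p = 0.0043) and lost its call with the beta-actin covariate (adjusted p = 0.0514). The inflammatory caspase gene Casp4, near background, rose by 0.56 ± 0.15 in the full fit and in 3 of the 8 fits that left out 1 array. Among 14 genes of TNF and interleukin 6 signalling 4 rose (28.6%). Tnfaip6, the hyaluronan-binding protein TSG-6, rose by 1.91 ± 0.22 from very low levels, with 4.49 to 4.90 on day 7 and 2.54 to 3.04 on day 0. Socs3, a feedback inhibitor of interleukin 6 signalling, read 8.72, 8.46, 8.41 and 8.05 on day 7, against 6.34, 7.47, 5.92 and 7.41 on day 0 (1.62 ± 0.35, adjusted p = 0.00708, and 0.0523 without the arrays with liver transcripts), and a further probe set gave 0.49. Tnfrsf1b, the second TNF receptor, rose by 0.95 ± 0.23 in the full fit (adjusted p = 0.0159) but not without day 0 replicate 3 or 4 (adjusted p = 0.0545 and 0.059). Il6 rose by 0.71 ± 0.16 at levels of 3.48 to 3.87 on day 7 and 2.60 to 3.1 on day 0, all below the median negative control of 4.40, and was not called with the beta-actin covariate (adjusted p = 0.0907). The 8 colony stimulating factor genes gave 1 call (12.5%, against 6.73% of all genes). Csf1, the macrophage growth factor, fell by 0.58 on the log2 scale (adjusted p = 0.0201). It lost its call without replicate 3 or 4 of day 7 (adjusted p = 0.0607 and 0.0688), without replicate 4 of day 0 (adjusted p = 0.0667) and with the beta-actin covariate (adjusted p = 0.0962).

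The antibody and lipid mediator genes changed in part. Limma called 6.73% of all genes, against 42.9% of Fc receptor genes, 33.3% of eicosanoid genes and 7.14% of complement genes. The complement share was thus near that of all genes. Of 7 Fc receptor genes Fcgr2b, the inhibitory IgG receptor, rose by 1.01 ± 0.17 near background (adjusted p = 0.00114) and Fcgr1 rose as given above. The neonatal receptor gene Fcgrt fell by 0.66 on the log2 scale near background (adjusted p = 0.0173, but 0.0616 without day 7 replicate 3, 0.0611 without day 0 replicate 4 and 0.117 with the beta-actin covariate), and the activating receptor gene Fcgr3, chosen after its values were seen, differed by 0.22 ± 0.15 (adjusted p = 0.519). Of 15 eicosanoid genes 3 rose, all near background on both days, and 2 fell. Pla2g7, which inactivates platelet-activating factor, rose by 1.02 ± 0.20 (adjusted p = 0.00315), and the prostaglandin E2 receptor genes Ptger4 and Ptger2 rose by 0.82 ± 0.19 and 0.39 ± 0.11, with Ptger2 called in 4 of the 8 fits that left out 1 array and Ptger4 not called without day 7 replicate 3 (adjusted p = 0.0537). Ptgis, the prostacyclin synthase of vessel walls, read 7.19, 7.11, 6.42 and 6.93 on day 7, against 8.42, 8.74, 8.39 and 8.26 on day 0 (-1.54 ± 0.24, adjusted p = 0.000745). Ltc4s, which makes the cysteinyl leukotriene C4, fell by 1.61 on the log2 scale (adjusted p = 0.00256), while a further Ltc4s probe set differed by 0.09. Complement gave 1 call among 14: the C1 inhibitor gene Serping1 fell by 1.19 on the log2 scale (adjusted p = 0.021, but 0.0842 without day 7 replicate 3, 0.0758 without day 7 replicate 4, 0.0515 without day 0 replicate 3 and 0.0767 with the beta-actin covariate). The 3 genes of C1q, chosen after their values were seen, were not called. They differed by -0.45 ± 0.34 (C1qa), -0.51 ± 0.33 (C1qb, further probe set 0.24) and -0.38 ± 0.20 (C1qc). The 5 pattern receptor and adaptor genes gave 0 calls (1 at an unadjusted p under 0.05), the largest differences being those of Tlr6 (0.34 ± 0.14, adjusted p = 0.193) and Myd88 (0.32 ± 0.18, adjusted p = 0.364).

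Matrix metalloproteinases, which cleave collagen and proteoglycan, and their inhibitors rose in 7 of 18 genes, and none fell. That is 38.9% called higher, against 3.09% of all genes. Mmp9, a gelatinase of neutrophils and osteoclasts, read 9.88, 9.58, 8.95 and 8.86 on day 7, against 5.65, 5.26, 5.78 and 5.50 on day 0 (3.77 ± 0.23, adjusted p = 1.76e-08), with a further probe set at 2.06. Mmp3, stromelysin 1 of synovial fibroblasts, read 11.13, 10.45, 10.69 and 10.63 on day 7, against 6.65, 7.4, 7.26 and 6.72 on day 0, which is 13.2 times higher on day 7 (3.72 ± 0.27, adjusted p = 1.41e-07). Mmp13, the main collagenase of mouse cartilage and bone, read 6.98, 7.41, 7.17 and 7.43 on day 7, against 3.66, 4.41, 3.51 and 4.09 on day 0 (3.33 ± 0.30, adjusted p = 1.84e-06). For each of the 3 proteases the groups were more than 2 units apart at their nearest arrays. In joint fluid cells of day 7 the levels were 10.3 for Mmp9, 8.91 for Mmp3 and 6.53 for Mmp13. Timp1, which inhibits these enzymes, read 13, 12.77, 12.21 and 12.90 on day 7, against 10.25, 10.10, 10.01 and 10.40 on day 0, 5.79 times higher on day 7 (2.53 ± 0.23, adjusted p = 1.52e-06), while a further Timp1 probe set differed by 0.27. Adam8, a sheddase of leukocytes, rose by 1.28 ± 0.15 (adjusted p = 4.55e-05). Mmp14 and Mmp2, the membrane enzyme and the gelatinase that it activates, rose by less, and both were chosen after their values were seen. Mmp14 gained 0.70 ± 0.18 and held its call in 3 of the 8 fits that left out 1 array (adjusted p = 0.0774 without day 0 replicate 4). The stretches before Mmp3 (chr9:7445648-7445807) and Mmp13 (chr9:7272402-7272561, chosen after its values were seen), both on the plus strand of GRCm38.p6 per RefSeq, are shown because both held the letters TGACTCA of AP-1 on one or the other strand. Capitals mark these, and in Mmp3 also the earlier C/EBP match:
Mmp3: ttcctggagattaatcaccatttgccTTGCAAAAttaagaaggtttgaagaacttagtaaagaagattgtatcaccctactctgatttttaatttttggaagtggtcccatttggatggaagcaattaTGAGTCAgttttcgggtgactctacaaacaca
Mmp13: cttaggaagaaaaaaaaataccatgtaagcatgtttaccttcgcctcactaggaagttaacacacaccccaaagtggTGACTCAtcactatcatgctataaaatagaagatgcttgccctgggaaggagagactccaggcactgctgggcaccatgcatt
An AP-1 match stood in 5.2% of all promoter windows, and at Mmp3 and Mmp13 it began at positions -46 and -35 from the start.

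**Figure D3:**
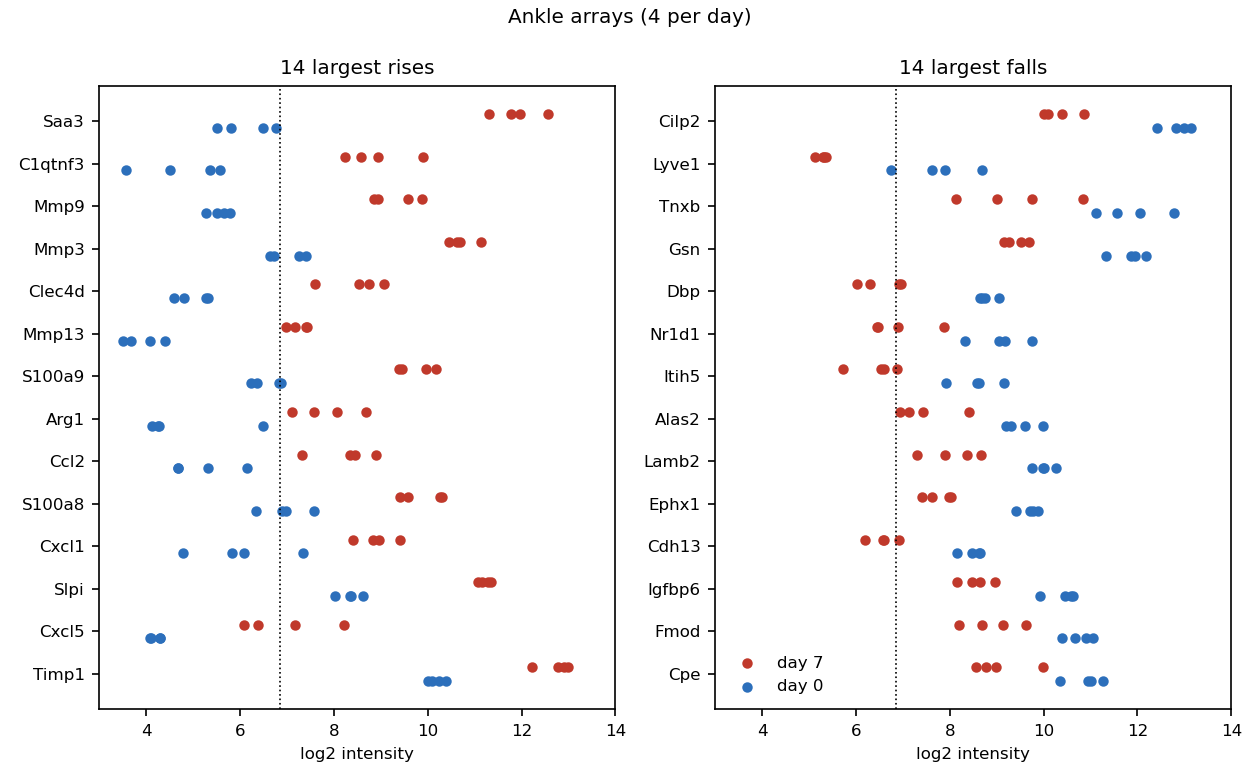
Log2 intensity (horizontal axis) of the 14 largest called rises (left panel) and the 14 largest called falls (right panel) in the 4 day 7 arrays (red, upper points of each row) and the 4 day 0 arrays (blue, lower points), with the control limit of 6.85 as a dotted line. No red point overlaps the blue points of its own gene, which the choice of these genes required.

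Lysosomal proteases and their inhibitors, 17 genes, had 2 rises and 2 falls (23.5% called, against 6.73% of all genes). Cstb, an intracellular cathepsin inhibitor, rose by 1.1 ± 0.19 (adjusted p = 0.00147), and Ctss, the cathepsin of antigen-presenting cells, rose by 1.08 ± 0.32 (adjusted p = 0.0472) with overlapping arrays and with its call held in 2 of the 8 fits that left out 1 array (adjusted p = 0.135 without day 0 replicate 1). Ctsf, cathepsin F, read 7.44, 7.18, 6.48 and 6.74 on day 7, against 9.20, 8.18, 8.97 and 8.74 on day 0 (-1.81 ± 0.29, adjusted p = 0.000804). Cst3, the secreted cystatin C, fell by 1.31 on the log2 scale (adjusted p = 0.00349), and a further Cst3 probe set gave -1.33. Osteoclast genes gave 2 calls among 11. One was Mmp9, and the other Tnfsf11, which encodes the osteoclast inducer RANKL and read 5.15, 4.81, 5.19 and 5.14 on day 7, against 3.90, 3.27, 3.29 and 3.60 on day 0 (1.56 ± 0.21, adjusted p = 0.000149), near background throughout. Osteoblast and bone matrix genes gave 0 calls by limma among 8, against 6.73% of all genes. However, 4 of the 8 (50%) had an unadjusted p under 0.05, against 18.7% of all genes. The largest differences were those of Sparc (-0.48 ± 0.22, adjusted p = 0.229) and Pth1r (-0.47 ± 0.16, adjusted p = 0.0984). Of 12 secreted antagonists of Wnt and BMP, 2 were called (16.7%). Sfrp2 rose by 0.86 ± 0.23 (adjusted p = 0.0265) and Sfrp4 fell by 1.19 on the log2 scale (adjusted p = 0.00196). Sfrp2 was called in 4 of the 8 fits that left out 1 array and in neither fit that dropped the liver arrays or added the beta-actin ratio (adjusted p = 0.0813 and 0.0973).

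Genes of synovial fibroblasts rose in 4 of 15 (26.7%, against 3.09% of all genes), and none fell. Tnc, tenascin C of remodelling tissue, read 8.08, 8.44, 7.47 and 7.75 on day 7, against 5.59, 6.20, 5.72 and 5.65 on day 0 (2.14 ± 0.21, adjusted p = 3.8e-06), and a further probe set gave 2.84. Postn, periostin, read 10.06, 10.91, 10.36 and 10.50 on day 7, against 7.13, 9.50, 9.04 and 8.58 on day 0, 3.71 times higher on day 7 (1.89 ± 0.38, adjusted p = 0.00461). Vcam1, a leukocyte adhesion molecule of synovial fibroblasts and endothelium, rose by 1.81 ± 0.30 (adjusted p = 0.00114), but its other 2 probe sets gave 0.09 and 0.35. Pdpn, podoplanin of the synovial lining and of lymphatics, rose by 0.77 ± 0.11 near background (adjusted p = 0.000224). Lining-layer genes chosen after their values were seen were not called: Cd55 differed by -1.21 ± 0.37 (adjusted p = 0.0569) and the hyaluronan synthase gene Has1 by -0.60 ± 0.31 (adjusted p = 0.31). The 16 collagens gave 0 calls by limma, against 6.73% of all genes, and a median difference of 0.08, and 2 of them had an unadjusted p under 0.05. Col5a2 (0.83 ± 0.30, adjusted p = 0.122) and Col8a1 (0.58 ± 0.32, adjusted p = 0.364) differed most. Col1a1 and Col3a1, chosen after their values were seen, differed by -0.03 ± 0.31 and 0.22 ± 0.22, with the other 2 probe sets of Col3a1 at 0.40 and 0.80. The sign of Col1a1 turned under some alternatives, at 0.48 with the beta-actin covariate. Serpinh1, the collagen chaperone and chosen after its values were seen, was called at 0.98 ± 0.29 (adjusted p = 0.0471) with overlapping arrays. Its call held in 2 of the 8 fits that left out 1 array (adjusted p = 0.152 without day 7 replicate 2).

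Other matrix genes moved both ways. Of 18 small proteoglycan and elastic fibre genes 3 rose and 2 fell (27.8% called, against 6.73% of all genes). The risers were the collagen cross-linking enzyme Lox (1.52 ± 0.38, adjusted p = 0.022, arrays overlapping, called in 4 of the 8 fits that left out 1 array, 0.0813 without day 7 replicate 4, and a further probe set at 0.65), the basement membrane and elastic fibre protein Fbln2 (1.18 ± 0.27, adjusted p = 0.0117) and Mfap4 (1.09 ± 0.20, adjusted p = 0.00238, with a further probe set at 0.10). Mfap4, near background on both days, was the only one of these 3 called with the beta-actin covariate. Tnxb, the tenascin X of tendon and dermis, read 10.85, 9.76, 8.996 and 8.14 on day 7, against 12.78, 12.05, 11.12 and 11.55 on day 0, 5.43 times higher on day 0 (-2.44 ± 0.49, adjusted p = 0.00427), and a further probe set gave -2.42. Fmod, the collagen-binding fibromodulin, read 9.13, 9.63, 8.20 and 8.69 on day 7, against 10.40, 10.67, 11.04 and 10.90 on day 0 (-1.84 ± 0.29, adjusted p = 0.000764), with a further probe set at -0.52. The 4 measured tendon and ligament genes gave 2 calls (50%), Tnc up and Fmod down. Among other matrix and adhesion genes with the largest falls, Lamb2, the laminin beta 2 chain, read 8.36, 8.66, 7.89 and 7.3 on day 7, against 9.99, 10.26, 9.76 and 10.01 on day 0 (-1.95 ± 0.30, adjusted p = 0.000639). Itih5, a hyaluronan-associated inter-alpha-trypsin inhibitor chain, fell by 2.14 on the log2 scale (adjusted p = 0.000257), though a further probe set differed by 0.31. Cdh13 (T-cadherin) fell by 1.91 on the log2 scale (adjusted p = 6.52e-05) and the growth factor binding protein gene Igfbp6 fell by 1.84 (adjusted p = 0.000102).

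Cartilage matrix genes gave 2 rises and 3 falls among 16 (31.2% called, against 6.73% of all genes). Cilp2, cartilage intermediate layer protein 2, had the largest fall of all genes: it read 10.86, 10.39, 10.01 and 10.09 on day 7, against 12.42, 12.81, 12.99 and 13.14 on day 0, 5.67 times higher on day 0 (-2.50 ± 0.24, adjusted p = 2.78e-06). The fall left Cilp2 well above background, and a further probe set gave -2.25. Matn4, matrilin 4, read 9.62, 8.90, 8.58 and 8.4 on day 7, against 10.84, 10.03, 10.52 and 10.74 on day 0 (-1.66 ± 0.36, adjusted p = 0.00775). Chad, chondroadherin, fell by 1.04 on the log2 scale (adjusted p = 0.0049, and 0.0705 with the beta-actin covariate). Acan, the aggregating proteoglycan of cartilage, moved the other way, with 8.62, 8.43, 6.93 and 7.4 on day 7 and 6.11, 5.96, 5.83 and 6.33 on day 0 (1.79 ± 0.28, adjusted p = 0.00074). Its fluid cell mean on day 7 was 5.40, near background. Chil1, a chitinase-like protein of chondrocytes and macrophages, rose by 1.12 ± 0.19 near background (adjusted p = 0.00147).

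C1qtnf3, a secreted C1q and TNF related protein known from growing cartilage and from fat, had the second largest rise. It read 8.58, 9.91, 8.23 and 8.93 on day 7, against 3.57, 5.58, 5.36 and 4.52 on day 0 (4.16 ± 0.42, adjusted p = 7.07e-06). All day 7 arrays were above the control limit and all day 0 arrays near background, and joint fluid cells of day 7 averaged 3.88, below the median negative control. Slpi, a secreted inhibitor of neutrophil elastase, read 11.36, 11.07, 11.15 and 11.30 on day 7, against 8.62, 8.03, 8.34 and 8.37 on day 0, 7.34 times higher on day 7 (2.88 ± 0.24, adjusted p = 7.94e-07), and its other 3 probe sets gave 0.59 to 4.56. Further large rises, chosen after their values were seen, were those of the adhesion molecule Chl1 (2.38 ± 0.42, with a further probe set at 0.10), of Slfn4, a Schlafen gene of myeloid cells (2.20 ± 0.20), and of Crabp2, which binds retinoic acid (2.14 ± 0.21). Il13ra1 and Il4ra, which form the receptor for interleukins 4 and 13 and were chosen in the same way, rose by 1.59 ± 0.25 and 1.13 ± 0.27, though a further Il4ra probe set gave 0.24 and Il4ra was not called with the beta-actin covariate (adjusted p = 0.13) or without day 0 replicate 3 (adjusted p = 0.0557).

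Genes of cell division formed the list with the most calls: 14 of 26 rose and none fell, a share of 53.8% against 3.09% of all genes, with a median difference of 0.62. Top2a, the topoisomerase of dividing cells, read 6.73, 7.59, 7.57 and 6.83 on day 7, against 5.16, 5.29, 4.99 and 5.12 on day 0 (2.04 ± 0.22, adjusted p = 1.39e-05). Cks2 and Cdk1, a partner and the catalytic subunit of the mitotic kinase, rose by 1.81 ± 0.22 (adjusted p = 4.6e-05) and 1.51 ± 0.20 (adjusted p = 0.000125). Cdk1 lay at 7.32 to 7.49 on day 7 and at 5.66 to 6.16 on day 0, while both means of Cks2 were near background. Birc5, survivin of the mitotic spindle, and the spindle motor gene Kif11 rose by 0.80 ± 0.13 and 0.93 ± 0.17, both near background on each day. Among members chosen after their values were seen, Cdc20 and Ccnb2, which drive mitosis, rose by 1.08 ± 0.21 and 0.89 ± 0.17, and the replication helicase gene Mcm3 rose by 0.93 ± 0.23, with a further probe set at 1.11. Mcm3 was called in 4 of the 8 fits that left out 1 array (adjusted p = 0.0672 and 0.0764 without day 7 replicates 2 and 3, 0.0592 and 0.0566 without day 0 replicates 1 and 3) and not with the beta-actin covariate (adjusted p = 0.0775). Ccnd1, the G1 cyclin and chosen after its values were seen, differed by -0.66 ± 0.21, with a further probe set at 0.05, and was not called (adjusted p = 0.0645). Without the arrays with liver transcripts 16 of the 26 were called higher and 1 lower, and with the beta-actin covariate 7 were higher and none lower.

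**Figure D4:**
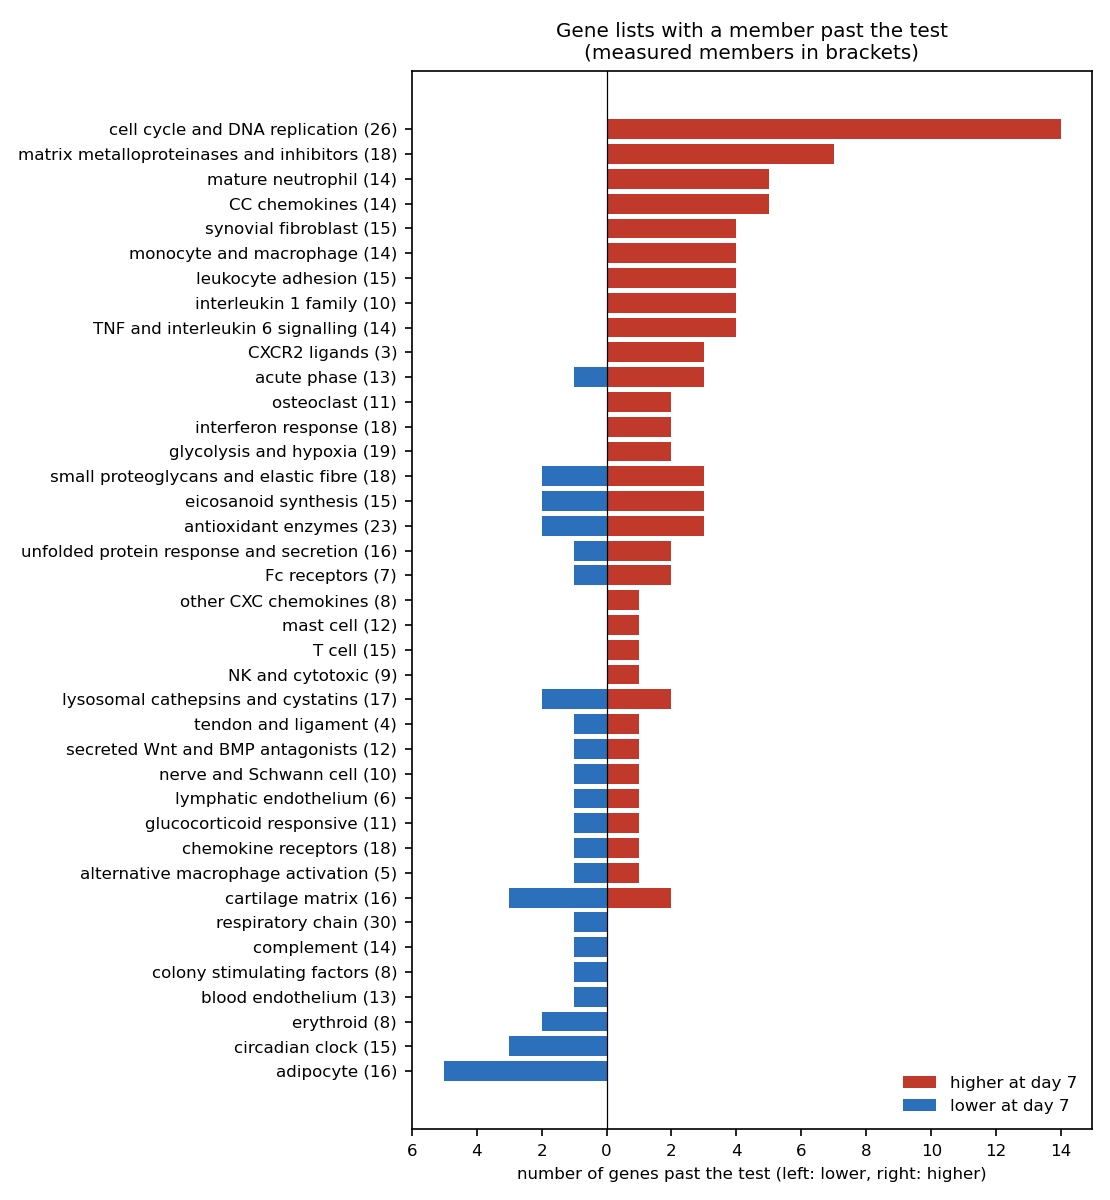
Number of genes past the test (horizontal axis) in each gene list with at least 1 call, with higher genes to the right in red, lower genes to the left in blue and the number of measured members in brackets. Cell cycle genes have 14 of 26 higher, and adipocyte genes have 5 of 16 lower, against 3.09% higher and 3.64% lower over all genes.

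Called genes were found in both endothelial lists. Lyve1, a hyaluronan receptor of lymphatic vessels and of some resident macrophages, read 5.32, 5.36, 5.29 and 5.12 on day 7, against 6.74, 8.69, 7.62 and 7.91 on day 0 (-2.46 ± 0.34, adjusted p = 0.000173). Every day 7 array was near background. The 6 lymphatic genes gave 2 calls (33.3%, against 6.73% of all genes), this fall and the rise of Pdpn. Blood endothelium gave 1 call among 13 (7.69%, against 6.73% of all genes), Cldn5 of endothelial tight junctions, which read 8.02, 7.59, 6.71 and 6.61 on day 7, against 8.72, 8.86, 8.91 and 8.53 on day 0 (-1.52 ± 0.40, adjusted p = 0.0282). Its call held in 3 of the 8 fits that left out 1 array (adjusted p = 0.0998 without day 7 replicate 3). Cdh5, VE-cadherin, chosen after its values were seen, differed by 1.07 ± 0.32 in the other direction and was not called (adjusted p = 0.0569). Of genes chosen likewise, Aqp1, the water channel of vessels and synovium, fell by 1.76 on the log2 scale with a further probe set at 0.09, and the smooth muscle myosin gene Myh11 fell by 1.44. Of 15 leukocyte adhesion genes 4 rose (26.7%, against 3.09% of all genes). Besides Vcam1 these were Selp, P-selectin of platelets and activated endothelium (0.82 ± 0.15, adjusted p = 0.00208), its leukocyte ligand gene Selplg (1.06 ± 0.20, adjusted p = 0.00327) and Cd44 (0.52 ± 0.13, adjusted p = 0.0204). Cd44 was near background on both days, and its other probe sets gave 0.01 and 0.17. It was not called without day 0 replicate 3 or 4 (adjusted p = 0.0687 and 0.0544) or with the beta-actin covariate (adjusted p = 0.109).

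Adipocyte genes fell in 5 of 16 and rose in none, with a median difference of -0.60 and 2 of the 16 differences above 0. That is 31.2% called lower, against 3.64% of all genes. Retn, which encodes the adipokine resistin, read 6.60, 6.49, 6.74 and 6.28 on day 7, against 8.15, 7.72, 8.19 and 7.4 on day 0 (-1.34 ± 0.18, adjusted p = 0.000149). Lipe, hormone-sensitive lipase, fell by 1.00 on the log2 scale (adjusted p = 0.00349), and Fasn, fatty acid synthase, fell by 0.95 (adjusted p = 0.00807). The desaturase gene Scd1 and Lep, which encodes leptin, fell by 1.01 and 0.67, with other probe sets at -1.55 and -0.33 for Scd1 and at -0.10 for Lep. Both were called in only part of the fits that left out 1 array (4 and 3 of 8), with adjusted p = 0.0993 and 0.149 without day 0 replicate 3. Adipoq, the defining adiponectin gene and chosen after its values were seen, overlapped between the days and differed by -0.48 ± 0.39 (adjusted p = 0.596). Angptl4, a fasting-induced inhibitor of lipoprotein lipase also chosen after its values were seen, rose by 1.73 ± 0.27, with its other 3 probe sets at -0.09 to 1.12.

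Red cell genes gave 2 falls among 8 (25%, against 3.64% of all genes). Alas2, the first enzyme of erythroid haem synthesis, read 8.4, 7.13, 6.94 and 7.43 on day 7, against 9.30, 9.60, 9.20 and 9.996 on day 0, 4.14 times higher on day 0 (-2.05 ± 0.33, adjusted p = 0.00085). Hba-a1, an alpha globin gene with near-identical copies that this probe set may not separate, read 11.90, 10.54, 11.15 and 11.07 on day 7, against 12.38, 12.64, 12.74 and 13.05 on day 0 (-1.54 ± 0.27, adjusted p = 0.00172). Hbb-b2 and the red cell enzyme gene Bpgm, chosen after their values were seen, fell by 0.86 and 1.35 on the log2 scale, and neither was called with the beta-actin covariate (adjusted p = 0.12 and 0.188) or without day 0 replicate 4 (adjusted p = 0.0516 and 0.0549), nor Bpgm without day 7 replicate 4 (adjusted p = 0.051). The summed intensity of the 8 genes was 2820.1 to 5264.7 on day 7 and 7265.6 to 10818.9 on day 0. The blood leukocyte arrays averaged 11.01 on day 7 and 11.91 on day 0 for Alas2, and 13.51 and 13.69 for Hba-a1. For Hbb-b2 they averaged 11.82 on day 7 and 12.17 on day 0, and for Bpgm 10.43 and 11.42. Whether blood differed between these days was not tested. The part of blood held in the tissue in the fall of red cell genes in the ankle was not tested.

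Of 15 circadian clock genes 3 fell (20%, against 3.64% of all genes) and none rose. Dbp, an output transcription factor of the clock, read 6.95, 6.29, 6.91 and 6.02 on day 7, against 9.04, 8.68, 8.64 and 8.75 on day 0 (-2.23 ± 0.30, adjusted p = 0.000148). Nr1d1, the repressor REV-ERB alpha, read 7.88, 6.47, 6.44 and 6.89 on day 7, against 9.76, 8.33, 9.04 and 9.17 on day 0, 4.45 times higher on day 0 (-2.15 ± 0.36, adjusted p = 0.0012). Per1, a repressor in the core loop, fell by 1.02 on the log2 scale (adjusted p = 0.0176, but 0.069 without day 7 replicate 4 and 0.059 without day 0 replicate 4, and 0.148 with the beta-actin covariate). Arntl, which encodes the activator BMAL1 and was chosen after its values were seen, differed by 0.26 ± 0.11 near background (adjusted p = 0.205), and Nfil3, chosen likewise, differed by 0.62 ± 0.20 (adjusted p = 0.0685). No hour of collection is given in the labels. Per1 is shown because it was the one called clock gene with a CACGTG E-box, the element bound by CLOCK and BMAL1, in its window, at chr11:69098778-69098937 on the plus strand of GRCm38.p6 per RefSeq. Capitals mark the E-box and a C/EBP match:
Per1: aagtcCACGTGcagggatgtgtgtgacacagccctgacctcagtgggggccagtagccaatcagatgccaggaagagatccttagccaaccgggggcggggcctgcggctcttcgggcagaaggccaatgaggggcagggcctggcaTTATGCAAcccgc
E-boxes of these letters stood in 7.15% of all promoter windows. The windows of Dbp and C1qtnf3 held none of the 4 motifs, and that of Nr1d1 held a C/EBP match.

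For other cell types, the share of called genes was 8.33% for mast cells, 6.67% for T cells, 11.1% for NK and cytotoxic cells and 20% for nerve. Limma called 6.73% of all genes and gave 18.7% an unadjusted p under 0.05. Among 12 mast cell genes 1 rose, Hdc, the histidine decarboxylase also made by neutrophils (1.36 ± 0.24, adjusted p = 0.00155), and joint fluid cells of day 7 averaged 10.02 for it. Of 15 T cell genes only Il7r rose (0.44 ± 0.12, adjusted p = 0.0268), and of 9 NK and cytotoxic genes only Klrd1 rose (0.59 ± 0.16, adjusted p = 0.032). Both were near background on each day and were called in 3 of the 8 fits that left out 1 array. The 15 B cell genes gave 0 calls (1 at an unadjusted p under 0.05), with Pou2af1 (0.42 ± 0.18, adjusted p = 0.193) and Ighm (-0.32 ± 0.20, adjusted p = 0.464) differing most. The 19 keratinocyte and hair genes gave 0 calls (3 at an unadjusted p under 0.05), with Perp at -0.80 ± 0.26 and Krt10 at -0.69 ± 0.60. The 25 skeletal muscle genes also gave 0 calls (4 at an unadjusted p under 0.05) and a median difference of -0.40. Myh1, a fast myosin, spread over 5.49 to 9.15 on day 7 and 7.43 to 9.85 on day 0 (-1.82 ± 0.66, adjusted p = 0.119), Eno3 differed by -1.33 ± 0.51 (adjusted p = 0.142), and Acta1, chosen after its values were seen, differed by -0.96 ± 0.50 (adjusted p = 0.319). Of 10 nerve and Schwann cell genes, Ncam1 rose by 0.78 ± 0.15 with other probe sets at 0.02 and 0.34, and S100b fell by 1.25 on the log2 scale (adjusted p = 0.000809).

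Interferon-induced genes rose in 2 of 18, the antiviral Ifit1 by 0.74 ± 0.16 near background (adjusted p = 0.00661) and the ubiquitin-like Isg15 by 0.64 ± 0.16 (adjusted p = 0.0208, called in 4 of the 8 fits that left out 1 array, 0.0827 without day 7 replicate 3 and 0.119 with the beta-actin covariate). The 10 genes of class I presentation gave 0 calls (1 at an unadjusted p under 0.05), with the largest differences in the peptide transporter gene Tap1 (0.51 ± 0.25, adjusted p = 0.305) and the proteasome activator gene Psme1 (-0.50 ± 0.19, adjusted p = 0.127). The 12 class II genes gave 0 calls as well, with 4 at an unadjusted p under 0.05 and 11 of 12 differences above 0. H2-Aa read 10.63, 10.07, 9.40 and 9.67 on day 7, against 9.31, 9.36, 8.94 and 8.80 on day 0 (0.84 ± 0.27, adjusted p = 0.0728), and H2-Eb1 differed by 0.81 ± 0.27 (adjusted p = 0.0798). For both genes the arrays did not overlap. The 18 immediate early genes gave 0 calls (5 at an unadjusted p under 0.05), led by Ier2 (-1.09 ± 0.47, adjusted p = 0.211) and Klf4 (-0.98 ± 0.34, adjusted p = 0.107). These counts are from limma, which called 6.73% of all genes and gave 18.7% an unadjusted p under 0.05.

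In most lists of metabolic and stress genes the share of called genes exceeded the 6.73% of all genes. It did so for glycolysis and hypoxia, antioxidant, protein folding and glucocorticoid-responsive genes, and not for the respiratory chain. Of 19 glycolysis and hypoxia genes 2 rose. Hif1a, the oxygen-regulated transcription factor subunit, read 11.09, 11.32, 11.84 and 11.59 on day 7, against 9.59, 10.52, 9.99 and 10.36 on day 0, 2.54 times higher on day 7 (1.35 ± 0.23, adjusted p = 0.00143), and a further probe set gave 1.33. The glycolytic mutase gene Pgam1 rose by 0.60 ± 0.14 (adjusted p = 0.0125, and 0.0505 without day 0 replicate 4). Of 30 respiratory chain subunits 1 fell, Ndufv1 of complex I, by 0.61 on the log2 scale (adjusted p = 0.0149), which is 3.33% of the list, against 6.73% of all genes. Ndufv1 was not called without day 0 replicate 3 or 4 (adjusted p = 0.0636 and 0.0577) or with the beta-actin covariate (adjusted p = 0.194). Among 23 antioxidant genes 3 rose and 2 fell. Mt2, a metallothionein, was already bright and rose by 1.03 ± 0.21, while Sod2, the mitochondrial superoxide dismutase, and Hmox1, haem oxygenase 1, rose by 0.92 ± 0.25 and 0.57 ± 0.14. Sod2 overlapped between the days and was called in 2 of the 8 fits that left out 1 array, and Hmox1 in 5. Neither was called with the beta-actin covariate (adjusted p = 0.12 and 0.0918). Gpx3, the secreted glutathione peroxidase, read 7.95, 7.70, 8.16 and 7.42 on day 7, against 9.50, 9.12, 8.95 and 10.06 on day 0 (-1.60 ± 0.29, adjusted p = 0.00181), and the transferase gene Gstm1 fell by 0.96 on the log2 scale with a further probe set at 0.03 and was not called with the beta-actin covariate (adjusted p = 0.0876). Of 16 genes of protein folding and secretion Hsp90b1 rose by 0.96 ± 0.21 (adjusted p = 0.077 with the beta-actin covariate) and Pdia6 by 0.72 ± 0.14, the Pdia6 result with further probe sets at -0.55 and -0.06, and Herpud1 fell by 0.72 on the log2 scale and in 1 of the 8 fits that left out 1 array. Of 11 glucocorticoid-responsive genes, Mt2 rose and Per1 fell, which are also counted in the antioxidant and clock lists. Further large falls were those of the actin-severing gelsolin gene Gsn, which read 9.52, 9.70, 9.15 and 9.27 on day 7, against 11.85, 11.32, 12.18 and 11.95 on day 0 (-2.42 ± 0.26, adjusted p = 1.66e-05), of the epoxide hydrolase gene Ephx1 (-1.93 ± 0.24, adjusted p = 6.2e-05) and of the prohormone-processing enzyme gene Cpe (-1.82 ± 0.31, adjusted p = 0.00114, further probe set -2.10).

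Set beside the neighbouring days of the ankle, day 7 differed from day 3 in 42 genes (29 higher and 13 lower, 0.509% of those tested). C1qtnf3 led the rises, with 8.23 to 9.91 on day 7 and 3.70 to 4.55 on day 3 (4.67 ± 0.46, adjusted p = 2.06e-05). Mmp9 lay at 8.86 to 9.88 on day 7 and 5.65 to 6.00 on day 3 (3.48 ± 0.25, adjusted p = 4.77e-07), and Mmp13 (2.76 ± 0.33), Crabp2 (2.74 ± 0.23) and Acan (2.11 ± 0.31) followed. Tnxb (-2.40 ± 0.53, adjusted p = 0.0494), Cilp2 (-2.34 ± 0.26, adjusted p = 6.55e-05), Lamb2 (-1.80 ± 0.33), Itih5 (-1.56 ± 0.33) and Dbp (-1.55 ± 0.32) were the largest called falls. Saa3 and Ccl2 differed between day 7 and day 3 by 1.04 ± 0.35 and -0.41 ± 0.38 and were not called. These comparisons share the day 7 arrays with the comparison against day 0. The count was 23 without day 7 replicate 2 and 12 without day 3 replicate 2. Between day 7 and day 12, limma called 0 genes, with 263 (3.19%) at an unadjusted p under 0.05, and 1 gene in a fit of all 49 arrays. Over days 0, 1, 3, 7, 12 and 18, Saa3 averaged 6.14, 8.003, 10.86, 11.90, 11.83 and 11.68. Mmp9 averaged 5.55, 5.73, 5.84, 9.32, 8.35 and 8.57 on the same days. Saa3 was thus above the control limit from day 1, and Mmp9 from day 7. Top2a averaged 5.14, 5.32, 6.03, 7.18, 6.72 and 6.23, so that its only daily mean above the limit was that of day 7. Cilp2 averaged 12.84, 13.08, 12.68, 10.34, 11.56 and 12.04, lowest on day 7, and Lyve1 averaged 7.74, 7.59, 6.33, 5.27, 5.28 and 5.18, with a mean near background from day 3 on.

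**Figure D5:**
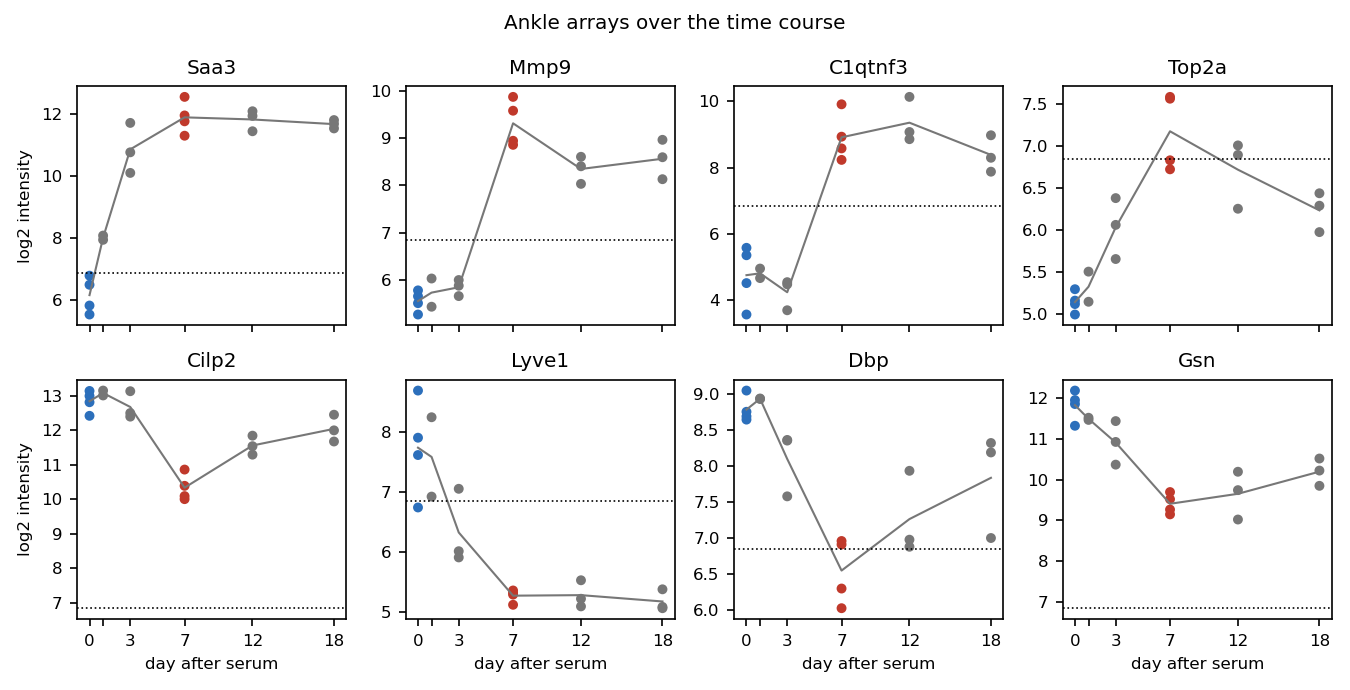
Log2 intensity (vertical axes, each scaled to its gene and not starting at 0) of 8 genes in every ankle array over days 0 to 18 (horizontal axis), with day 7 in red, day 0 in blue, other days in grey, lines through the daily means and the control limit of 6.85 dotted. Saa3 is already high on day 3 at a mean of 10.86, whereas Mmp9 and C1qtnf3 average 9.32 and 8.91 on day 7 and 5.84 and 4.24 on day 3.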

How the data were processed

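Total RNA of whole ankles had been hybridised to Affymetrix mouse arrays, 1 sample per array, with biotin label. The labels name both an SDS/urea and a Trizol extraction for the ankles, and the description of day 0 replicate 2 opens with a short name unlike its title, from which its group was taken. The values used are the intensities deposited by the authors, on a linear scale, one per probe set and made with RMA per the submitters' processing notes, which give no version. RMA corrects background, normalizes by quantiles and summarises the probes, so differences are relative to the whole array. The precision is limited by the number of arrays.

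Intensities were turned into log2 values here, and of 12488 probe sets 10833 named a single gene, 396 named more and 1259 named none or were control sets. The probe set with the highest mean over all 49 arrays stood for each of 8251 genes, of which 2073 had several. A linear model with 1 mean per day was fitted to the 19 ankle arrays, which then share 1 estimate of the spread, and tested with limma 3.58.1 (R 4.3.3, empirical Bayes with an intensity trend), with Benjamini-Hochberg adjustment over all 8251 genes and a threshold of 0.05. The scripts were tested on simulated data with known answers.

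The 51 gene lists, the members and the tests were chosen with earlier results of these data known. Named genes were the 14 largest rises and falls with separated arrays, up to 5 members of each list by smallest p with any member against the majority (in lists without a call, the 2 largest differences), the liver genes, CXCR2 and its ligands, and the 5 largest rises and falls against day 3. Genes outside this rule are marked as chosen after their values were seen. Differences of further probe sets are given beside the named genes that passed the test and have them. Alternatives covered the arrays fitted, the normalization, the probe set rule, filters and floors, array weights, the replicate block, the beta-actin ratio, the arrays with liver transcripts and each array left out in turn. Promoter sequences came from RefSeq (GRCm38.p6), and Mmp9 had no entry.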

Additional observations from a re-analysis of the deposited data

Results flagged for a closer look

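Of 400 groups of 4 arrays tested over the 200 named genes, 36 (9.0%) held an array whose gap to its nearest neighbour was a larger part of the group's range than Dixon's 95% critical value. Chance gives about 1 in 20, and over all genes the share was 6.13%. Most of the 36 lay in liver genes of replicate 1. On day 7, replicate 1 stood high for Alb (8.41, nearest array 4.87), Apoa1 (7.97), Apoa2 (8.57), Serpina1b (8.80), Serpina1c (10.17), Ambp (5.98), Fgg (5.57), Apob (4.08) and Apoh (5.51). On day 0, replicate 1 stood high for Alb (8.95, nearest array 5.19), Apoa1 (8.98), Apoa2 (8.39), Serpina1b (10.04), Serpina1c (10.79), Serpina1e (9.16), Ambp (7.15), Fgb (6.23), Tdo2 (6.59) and Hpx (6.58). Day 0 replicate 2 stood low for Fabp1 (3.68) and Bhmt (5.65).

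Among other genes, day 7 replicate 1 stood high for Folr2 (7.89), Il4ra (9.53) and Cd44 (5.92). On day 7, replicate 2 stood low for Tnfsf11 (4.81) and Pou2af1 (3.79), replicate 3 stood low for Mmp14 (8.30) and replicate 4 stood low for Cstb (9.90). Day 0 replicate 1 stood high for Arg1 (6.49), Saa2 (8.11) and C1qa (9.21), and low for Col1a1 (11.01). Day 0 replicate 2 stood high for Il1r1 (6.14) and Ccl9 (8.20), and day 0 replicate 4 stood high for Pth1r (6.57) and Has1 (10.24).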

How the results depend on the processing

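Of the 22 alternatives run, none changed the sign of any of the 135 named genes that passed the test, where the gene was tested. Likewise, 77 of the 135 lost their call under no alternative that tested them. The filter that left out the dimmest genes did not test every named gene, and a gene absent there counts as kept. Of the 65 named genes that did not pass, 29 changed sign under at least 1 alternative: 23 liver genes and Adipoq, Camp, Col1a1, Col2a1, Col3a1 and Elane. With the beta-actin covariate, which overlaps with the day, 40 of the 135 did not pass, and without the arrays with liver transcripts 20 did not. The number of genes changed between day 7 and day 0, 555, was 309 with only the arrays of the 2 days, where fewer arrays estimate the spread, 250 with the beta-actin covariate, 1274 with array weights and 359 to 705 with 1 array left out (without day 0 replicate 4 and without day 0 replicate 2). For day 7 against day 3 the 42 genes became 15 with only the arrays of the 2 days, 20 with a floor at the 20th percentile, 73 without the arrays with liver transcripts, 80 with all 49 arrays in 1 fit, 131 with array weights and 12 to 44 with 1 array left out. For day 7 against day 12 the count of 0 became 1 with all 49 arrays in 1 fit and remained 0 otherwise. Beyond the smaller fits, the cause was not tested. Arrays centred on their median, a new quantile normalization and the floor moved the median difference of all genes by less than 0.04.

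Same-numbered arrays of days 7 and 0 deviated together with r of 0.61, 0.58, 0.03 and 0.41 for replicates 1 to 4, and day 0 replicate 3 correlated best with day 7 replicate 4 (0.48), so the numbers were not taken as pairs. With a replicate block 917 genes were called between day 7 and day 0, 55 between day 7 and day 3, and 0 between day 7 and day 12. The block added calls for 12 named genes: H2-Aa (adjusted p = 0.00127), H2-Eb1 (0.00448), Cd55 (0.006), Cdh5 (0.0136), Psme1 (0.0265), Pth1r (0.0268), Col5a2 (0.0282), Eno3 (0.0321), Lum (0.0336), Nfil3 (0.0371), Klf4 (0.0452) and Ccnd1 (0.049). The share of genes near background limits what the arrays can show.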

Other observations

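Of the genes called higher on day 7, 145 of 255 (56.9%) exceeded the control limit in the joint fluid cells of day 7, as did 153 of 300 called lower (51.0%) and 39.7% of all genes. Among the large rises, Slfn4, Il1rn and Hdc had fluid cell means of 10.8, 11.2 and 10.02, above their day 7 ankle levels, whereas Postn (6.11) and C1qtnf3 (3.88) were near background in fluid cells. Crabp2 had a mean of 6.02 in fluid cells and of 6.83 in the day 7 ankles, both near background.

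Some further falls, chosen after their values were seen, touch fat and matrix signalling. Thrsp, a lipogenic gene, fell by 1.65 on the log2 scale (adjusted p = 0.0119, with overlapping arrays, and 0.056 without the arrays with liver transcripts). Plin4, which coats lipid droplets, fell by 1.01 with both means near background (adjusted p = 0.00993). Ccn2, a matrix-inducing growth factor, read 6.54, 7.77, 8.04 and 7.38 on day 7, against 8.23, 9.83, 8.95 and 9.44 on day 0 (-1.68 ± 0.39, adjusted p = 0.0136, and 0.188 with the beta-actin covariate). Lum, the small proteoglycan lumican and chosen likewise, differed by 1.16 ± 0.53 in the other direction and was not called (adjusted p = 0.243).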
